A study of Mus musculus with 12 samples.

Results

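The nuclear genome encodes all of respiratory complex II and most subunits of complexes III, IV and V, and these genes were followed here in the frontal cortex of 12 mice. Members were the protein-coding genes named Sdha, Sdhb, Sdhc, Sdhd or Cyc1, or with a symbol starting with Uqcr, Atp5, Cox4, Cox5, Cox6, Cox7 or Cox8, and with at least 120 counts over all libraries. The rule named 49 genes, of which 45 of the 54532 genes in the deposited table were members, with 4 in complex II, 9 in complex III, 15 in complex IV and 17 in complex V. All mice were 9 months old and carried the APP/PS1 transgenes, a model of amyloid deposition, and 6 of them were also Hras-/-, a knockout of the gene for the small GTPase H-Ras. The labels give no promoter or cell type for the transgenes or the knockout. Split by sex, this gave 4 groups of 3 mice: males and females that were APP/PS1, and males and females that were APP/PS1/Hras-/-, called knockout below. No mice without the transgenes were analysed here. Poly(A) RNA was sequenced from each mouse, and levels are given as CPM, library-scaled counts after TMM normalization.

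Complex II, succinate dehydrogenase, oxidises succinate in the citric acid cycle and passes electrons to ubiquinone. Complex III hands them to cytochrome c, and complex IV, cytochrome c oxidase, transfers them to oxygen. Complexes III and IV pump protons, and complex V, the ATP synthase, lets the protons flow back through a rotating ring and makes ATP. Neurons draw most of their ATP from this chain. The catalytic core of complex IV, cytochrome b of complex III and membrane parts of the ATP synthase are made in the mitochondrion, so each of these enzymes except complex II joins products of both genomes.

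Of the 45 members, 43 encode subunits. The other two are Cox7a2l, a relative of subunit 7a that joins complexes III and IV, and Atp5s, known as factor B, a coupling factor outside the core enzyme. The 4 genes under the count minimum were Cox8b with 113 counts, Cox7b2 with 25, and Cox8c and a second Atp5o annotation with 0. Just above it were Cox7a1 with 201 counts, Cox4i2 with 262 and Cox6b2 with 581. Cox8b lies 0.289 Mb from Hras, its counts ran from 1 to 34 per library, and 34 of the 113 came from APP/PS1 female 2. No member lay within 10 Mb of Hras. Pseudogene copies at 95% identity or more over at least 150 bases were found for 12 members. Counts assigned to the copies equalled 26.2% of the gene's own count for Atp5g1, 22.4% for Atp5l and 17.8% for Atp5h. They equalled 7.3% for Uqcrb, 5.7% for Atp5o and 5.55% for Cox7a2l, so the values of all these members are uncertain. The strand setting of the counting is not given in the sources used here, and Cox4i1 (with Emc8 and Gm20388), Cox6a2 (with Itgad), Cox6c (with Vps13b), Atp5j (with Gabpa), Uqcrc2 (with Pdzd9), Atp5d (with Cbarp), Sdha (with Gm16125), Atp5a1 (with Haus1), Atp5f1 (with Wdr77 and Gm42890), Atp5l (with Gm30934), Cox5a (with Gm26631) and Uqcrb (with Gm10767) overlap another gene. So do Uqcrh (with Gm12854), Cox7c (with Gm22574), Atp5c1 (with Gm23608), Atp5o (with D430001F17Rik, Gm15976 and the second Atp5o annotation), Atp5b (with Snord59a and Mir677) and Atp5g2 (with Mir688).

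Many respiratory genes are known targets of NRF1 and of the ETS family factor GABP, and the motifs of both were searched in the members' promoters, which are shown as background to the expression values. RefSeq promoters on GRCm38.p6 were matched by symbol for 33 of the 45 members, and the 250 bases before each start were scanned on both strands. The NRF1 palindrome GCGCATGCGC was present in 3 of the 33 (9.09%), against 1.25% of 16514 protein-coding genes with a promoter. A gene counted if any of its promoters held the motif. The ETS octamer CCGGAAGT or its reverse complement ACTTCCGG was present in 3 of the 33 (9.09%), against 4.46%. The 6 matches are shown 5′ to 3′ on the gene's strand, which is the minus strand for each of them, with the motif in capitals. Those of Atp5g2, Atp5k and Cox6a1 hold the NRF1 palindrome, and those of Atp5h, Uqcr11 and Uqcrh the ETS octamer.
Atp5g2 chr15:102671070-102671099: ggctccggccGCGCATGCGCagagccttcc
Atp5k chr5:108434430-108434459: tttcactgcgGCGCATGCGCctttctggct
Cox6a1 chr5:115349101-115349130: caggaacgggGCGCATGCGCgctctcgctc
Atp5h chr11:115419940-115419969: ccaaggagagaACTTCCGGcaactctcttc
Uqcr11 chr10:80406869-80406898: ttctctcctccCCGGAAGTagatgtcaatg
Uqcrh chr4:116075071-116075100: actacgaggagtatgccgcACTTCCGGcca
The first motif base lay at −42 (Atp5g2), −50 (Atp5k), −162 (Cox6a1), −39 (Atp5h), −66 (Uqcr11) and −11 (Uqcrh), counted from the RefSeq start. A match describes these letters only, and binding was not measured.

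Total counts per library ran from 13984692 to 20174131. Hras lay at 73.7 to 102 CPM in the 6 APP/PS1 libraries and at 19.4 to 23.4 CPM in the 6 knockout libraries. Markers of cortical cells were abundant in every library, with 6 neuronal genes summing to 4539 to 6585 CPM and 5 astrocyte genes to 5143 to 6820 CPM. Tissue content differed within groups, since 5 choroid plexus genes summed to 10.2 to 3048 CPM, highest in APP/PS1 female 2, and 5 striatal genes to 112 to 445 CPM. The RNA integrity number (RIN) was 7.8, 8.2 and 8.3 for the males with Hras and 8.6, 8.7 and 8.7 for the knockout males, without overlap. It was 8.6, 8.5 and 8.5 in APP/PS1 females and 8.5, 8.4 and 8.3 in knockout females. APP/PS1 male 1, with the lowest RIN, stood apart from the other 5 libraries of its genotype in 7 of the members. In bulk tissue, fewer cells of a type and less RNA per cell cannot be told apart.

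The members together took 0.573 to 0.662% of the counts of a library. Levels of different genes are compared per kilobase of the union of exons. In complex II the FAD-binding Sdha led with 95.2 CPM per kb, followed by the membrane anchor Sdhd with 52.6, the iron-sulfur subunit Sdhb with 41.9 and the other anchor, Sdhc, with 19.4. In complex III the levels ran from 31.2 CPM per kb for the accessory subunit Uqcrq to 115 for the accessory subunit Uqcr10, with cytochrome c1 (Cyc1) at 56.5 and the Rieske iron-sulfur protein Uqcrfs1 at 51.2. In complex IV, Cox8a, Cox4i1, Cox6a1 and Cox6b1 lay between 182 and 295 CPM per kb. In complex V the alpha and beta subunits of the catalytic head, Atp5a1 and Atp5b, lay at 222 and 214 CPM per kb, and factor B (Atp5s) was lowest at 6.77. Division by the longest transcript in place of the exon union put Uqcrh first in complex III (152 CPM per kb), Cox4i1 first in complex IV (500.2) and Atp5b first in complex V (473).

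**Figure D1:**
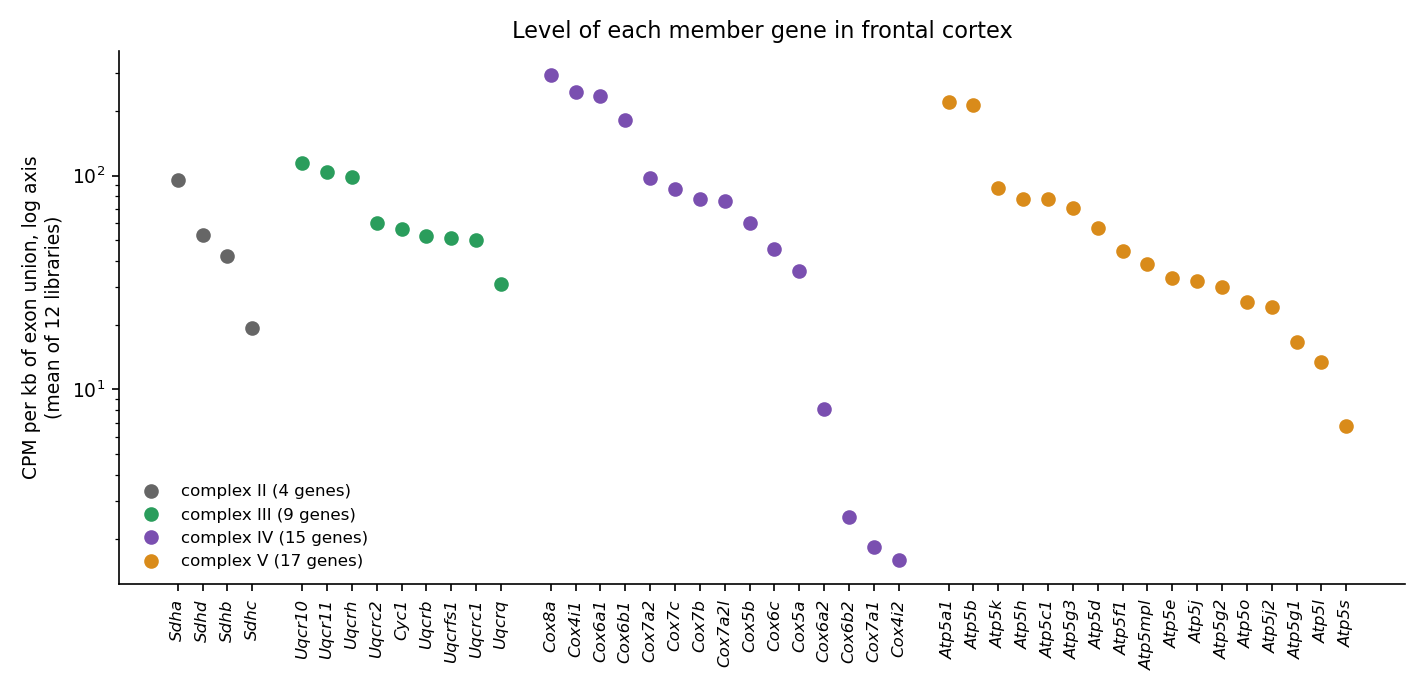
Level of each of the 45 members in CPM per kilobase of exon union on a log axis, as the mean of 12 libraries, grouped by complex. The 4 lowest genes of complex IV, from Cox6a2 at 8.14 to Cox4i2 at 1.59, are the isoforms best known from other tissues.

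Several subunits of complexes IV and V are made from paired genes, and the cortex libraries held mainly one of each pair. Cox4i2, an isoform of subunit 4 known from lung and pericytes, made up 0.645 ± 0.166% (SD, n = 12) of the CPM per kb of the pair with Cox4i1, and ranged from 0.641 to 1.67 CPM. The heart and muscle isoform Cox6a2 made up 3.34 ± 0.682% of its pair with Cox6a1, and lay between 3.16 and 7.79 CPM. The testis isoform Cox6b2 made up 1.38 ± 0.344% of its pair with Cox6b1, and the heart and muscle isoform Cox7a1 made up 1.84 ± 0.352% of its pair with Cox7a2. Of the muscle markers Ckm, Mb and Tnnt3, none exceeded 0.311 CPM in any library, and the germ line markers Prm1 and Prm2 had 0 counts in all 12. The germ line marker Dazl lay at 1.88 to 4.95 CPM, and the muscle marker Acta1 at 5.47 to 11.7 CPM. On the same lists, the muscle marker Myh4 lay at 0.469 to 1.44 CPM and the germ line marker Sycp3 at 0 to 0.586 CPM. The c subunits that form the rotating ring of the ATP synthase are encoded by 3 genes with the same mature product. Atp5g3 made up 60.1 ± 1.67% of their CPM per kb, Atp5g2 25.7 ± 1.61% and Atp5g1 14.2 ± 0.521% (SD, n = 12). With the longest transcript as the length, the shares were 67.8%, 25.6% and 6.60%. The order of the 3 was the same in both, and their ranges over the 12 libraries did not overlap.

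The summed level of the members was 6674, 6257 and 6261 CPM in the APP/PS1 males and 5777, 5965 and 5955 CPM in the knockout males. It was 5813, 5701 and 5957 CPM in APP/PS1 females and 6182, 5977 and 6144 CPM in knockout females. In these sums the knockout libraries thus lay below every APP/PS1 library of their sex in males and above every one in females. A sum follows the most abundant genes. An equal-weight score was the mean over members of log2 CPM minus each gene's mean over the 12 libraries. On this score the male genotypes again did not overlap. The female genotypes did, at −0.0835, −0.0337 and 0.0156 in APP/PS1 against 0.00459, 0.00882 and −0.00175 in knockout mice. Pooled over sex, the sum was 6110 ± 358 CPM without and 6000 ± 147 CPM with the knockout (SD, 6 mice each), and the genotypes overlapped. Complex II summed to 636, 612 and 632 CPM in APP/PS1 males, against 617, 602 and 609 in knockout males, 598, 606 and 599.6 in APP/PS1 females and 643, 609.6 and 607 in knockout females. Complex III summed to 1012, 931 and 929.8 CPM in the APP/PS1 males, against 866, 904 and 883 CPM in the knockout males. In females it summed to 876, 853 and 893 CPM in APP/PS1 and 923, 911 and 937 in knockout mice. Both complexes had their highest group mean in APP/PS1 males. The complex II sum, of which Sdha averaged 393 of 614 CPM, overlapped between genotypes in males. In females it did not, though the nearest values were 605.9 and 606.7 CPM. The equal-weight score of complex II did the reverse. It was 0.0612, 0.0368 and 0.0725 in APP/PS1 males against −0.0333, −0.0401 and −0.0251 in knockout males. In females it was −0.0552, −0.026 and −0.0115 against 0.0376, −0.0123 and −0.0046. Complex IV summed to 1821, 1700 and 1677 CPM in APP/PS1 males, against 1483, 1575 and 1564 in knockout males, 1499, 1470 and 1635 in APP/PS1 females and 1558, 1609 and 1597 in knockout females. Complex V summed to 3205, 3014 and 3023 CPM in the APP/PS1 males, against 2812, 2884 and 2899 CPM in the knockout males. In females it summed to 2840, 2772 and 2830 CPM in APP/PS1 and 3057, 2847 and 3003 in knockout mice. Complexes III and V had no overlap between genotypes in either sex, whereas complex IV overlapped in females through APP/PS1 female 3. Over the libraries, complex II summed to 0.199 to 0.219 of complex V, complex III to 0.302 to 0.320 and complex IV to 0.510 to 0.578. The ratio of complex IV to V was 0.568, 0.564 and 0.555 in APP/PS1 males and 0.527, 0.546 and 0.5395 in knockout males, without overlap. In females it was 0.528, 0.530 and 0.578 against 0.510, 0.565 and 0.532, with overlap. Atp5b and Atp5a1 averaged 906 and 695 of the mean 2932 CPM of complex V. On the equal-weight score the male genotypes were not separated. Complex IV lay above V in APP/PS1 males 2 (0.0486 and 0.0321) and 3 (0.0421 and 0.0231). It also did in knockout males 2 (−0.0113 and −0.056) and 3 (0.00235 and −0.0248). Both complexes lay at 0.156 in APP/PS1 male 1, and at −0.0957 and −0.0744 in knockout male 1. The ratios of complexes II and III to V overlapped between genotypes in both sexes. No difference in these ratios was tested.

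**Figure D2:**
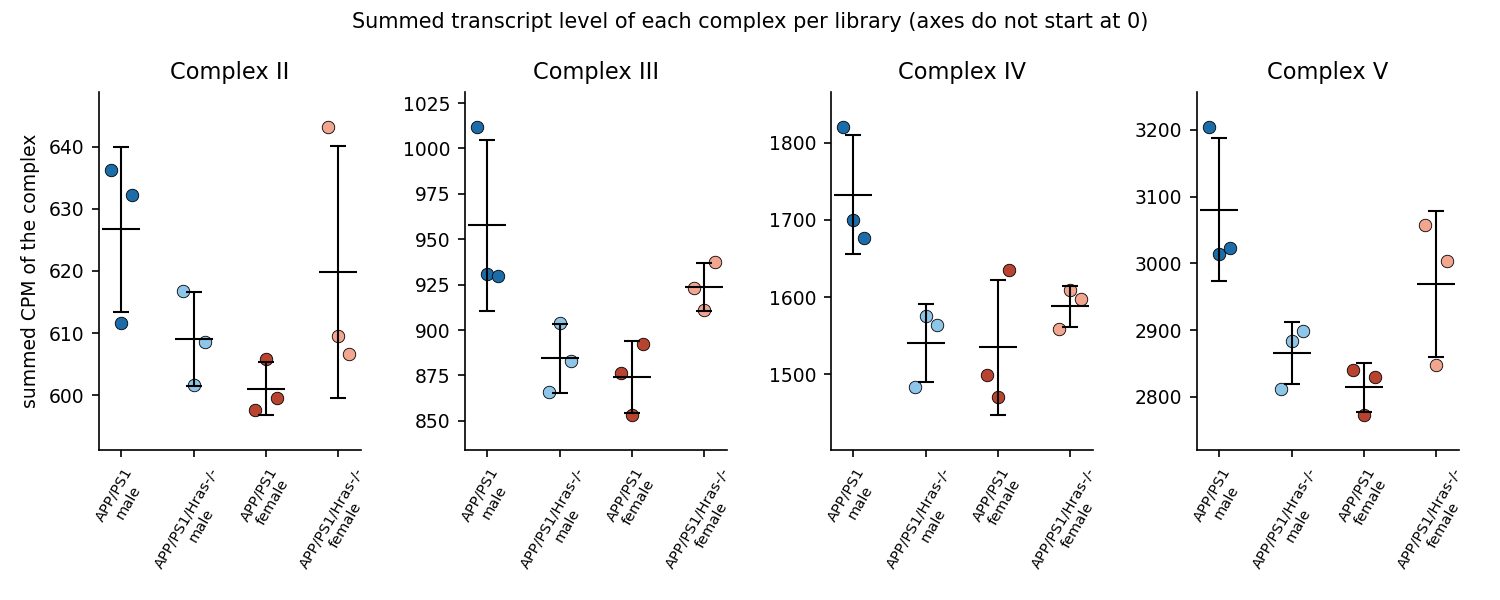
Summed CPM of the members of each complex in each library (points), with the mean and SD of the 3 mice of a group (line and bars); the axes do not start at 0. In complexes III and V all knockout males lie below all APP/PS1 males, and all knockout females above all APP/PS1 females.

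The study's main comparison asks how the Hras knockout changes the cortex of APP/PS1 mice. Across sexes, none of the 45 members passed edgeR's quasi-likelihood test at a Benjamini-Hochberg adjusted p under 0.05, and none had an unadjusted p under 0.05. DESeq2 also called none, with 1 at an unadjusted p under 0.05. Of all 17307 tested genes, 3 (0.0173%) were called. The log2 difference, knockout minus APP/PS1, was below 0 for 32 members and above 0 for 13, with a median of −0.044 against 0.002 over all tested genes. Medians by complex were −0.029 for complex II, −0.009 for III, −0.071 for IV and −0.032 for V. The member with the smallest p was Cox8a, the ubiquitous isoform of the small complex IV subunit 8, at −0.17 (95% interval −0.33 to 0.00034), and Sdha lay at 0.024 (95% interval −0.081 to 0.13). With RIN as a covariate the median was 0.017, with 17 members below 0 and 28 above.

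Within males most members had lower values in knockout mice, but none passed the test. The difference was below 0 for 39 of 45 members, with a median of −0.129, while 8400 of the 17307 tested genes were below 0 and their median was 0.006. No member was called (0.0116% of all tested genes were), and 8 of 45 had an unadjusted p under 0.05 and were lower, against 1.75% of all tested genes. The smallest adjusted p of a member was 0.945, and DESeq2 called none, with 9 at an unadjusted p under 0.05. For 21 of 45, every knockout male lay below every APP/PS1 male, against 5.22% of all tested genes, and for none did every knockout male lie above. Without APP/PS1 male 1, the library with the lowest RIN, 39 members were still below 0, the median was −0.093, 2 had an unadjusted p under 0.05, and 22 of 45 did not overlap, against 9.6% of all tested genes. Without knockout male 1 or 2, 5 or 4 members had such a p. With RIN as a covariate 26 members were below 0, the median was −0.047 and none had an unadjusted p under 0.05. The RIN slope within groups, which this fit uses, rested on 1 library, APP/PS1 male 1. Its median over the members was −0.180 with all libraries and 0.023 without that one. The same limit holds for the fits below with RIN as a covariate in females, for the interaction and for sex within a genotype. The RIN of the male groups did not overlap, so genotype and RNA quality cannot be told apart in males.

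In complex II, which is wholly nuclear, 3 of 4 members were below 0 in males. Sdha was at 405, 380.0 and 395 CPM in the APP/PS1 males and 405, 388 and 391 CPM in the knockout males, and its log2 difference was 0.005 (SE 0.070). Sdha was among the steadiest members, with a CV of 2.96% over the 12 libraries. Sdhb, which carries the iron-sulfur clusters, was at 97.8, 98.5 and 102 CPM against 88.4, 89.6 and 95.3 CPM, without overlap, at −0.13 (SE 0.067). The anchor Sdhd was at 66.4, 65.2 and 73.1 CPM against 59.4, 61.9 and 63.0 CPM, again without overlap, at −0.15 (SE 0.074). The other anchor, Sdhc, was at 67.5, 67.9 and 62.2 CPM against 64.2, 62.2 and 59.5 CPM and overlapped.

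In complex III, 7 of 9 members were below 0 in males, with a median of −0.137. Uqcrq (ENSMUSG00000044894, chromosome 11, 53427922 to 53430831, minus strand, GRCm38), a small accessory subunit, was at 72.2, 61.7 and 61.5 CPM in the APP/PS1 males and 53.1, 56.8 and 50.3 CPM in the knockout males. All knockout values were lower, at −0.29 (SE 0.092), with an edgeR adjusted p of 0.945. Cytochrome c1, the catalytic haem protein encoded by Cyc1, was at 141, 126 and 135 CPM against 114, 117 and 119 CPM, at −0.20 (SE 0.086). Uqcr10 was at 84.9, 69.6 and 69.6 CPM against 64.7, 62.1 and 64.5 CPM, and Uqcr11 at 83.4, 64.4 and 65.9 CPM against 63.5, 62.4 and 57.9 CPM, both without overlap. In each of these 4 genes APP/PS1 male 1 was the highest of the 6 male libraries. The 2 members above 0 were Uqcrb and Uqcrc2. The accessory subunit Uqcrb was at 38.5, 46.0 and 45.6 CPM against 44.8, 46.3 and 42.4 CPM, with APP/PS1 male 1 the lowest of all 12 libraries, and the core protein Uqcrc2 differed by 0.047 (SE 0.069). The Rieske protein Uqcrfs1 was at 72.3, 69.9 and 73.4 CPM against 67.4, 70.0 and 69.3 CPM and overlapped.

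In complex IV, 13 of 15 members were below 0 in males, with a median of −0.131. Cox8a (ENSMUSG00000035885, chromosome 19, 7215153 to 7217616, minus strand, GRCm38) was at 219, 205 and 207 CPM in the APP/PS1 males and 157, 175 and 179.7 CPM in the knockout males. All knockout values were lower, at −0.30 (SE 0.099). Cox4i1, the main isoform of the regulatory subunit 4, was at 476, 404 and 385 CPM against 365, 378 and 367 CPM, at −0.19 (SE 0.086). The structural subunit Cox5a was at 94.2, 79.6 and 84.2 CPM against 68.6, 73.9 and 76.0 CPM, at −0.24 (SE 0.093). Cox7a2l was at 136, 126 and 117 CPM against 109, 104 and 113 CPM, at −0.21 (SE 0.075). None of these 4 overlapped between the male groups. Cox6a1, Cox6b1 and Cox7a2 also did not overlap, with differences of −0.17, −0.14 and −0.16. X-linked Cox7b was at 92.7, 97.0 and 99.97 CPM against 83.5, 93.2 and 99.2 CPM and overlapped. The 2 members above 0 were the low isoforms Cox4i2, at 0.13 (SE 0.34), and Cox6a2, at 0.14 (SE 0.25). Cox6b2 and Cox7a1 lay at −0.12 (SE 0.30) and −0.11 (SE 0.33). The SE of each of these 4 low isoforms was larger than its difference.

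In complex V, 16 of 17 members were below 0 in males, with a median of −0.129. Atp5e (ENSMUSG00000016252, chromosome 2, 174461072 to 174464105, minus strand, GRCm38), the epsilon subunit of the catalytic head, was at 77.3, 61.1 and 58.6 CPM in the APP/PS1 males and 53.1, 51.5 and 54.9 CPM in the knockout males. All knockout values were lower, at −0.30 (SE 0.10), the one member of complex V with an unadjusted p under 0.05 here. The delta subunit Atp5d was at 154, 111 and 110.1 CPM against 103, 105 and 102 CPM, at −0.28 (SE 0.13), with APP/PS1 male 1 apart from every other male. The alpha subunit Atp5a1 was at 731, 724 and 726 CPM against 704, 678 and 685 CPM, without overlap and at −0.077 (SE 0.076). Among the ring genes, Atp5g1, Atp5g2 and Atp5g3 differed by −0.14, −0.13 and −0.14, and each overlapped. The member above 0 was Atp5s, at 11.6, 12.4 and 13.8 CPM against 16.6, 13.1 and 13.7 CPM, which overlapped. An exact permutation test of 3 against 3 mice cannot go below 0.1, the value it gave for each member without overlap.

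Within females most members had higher values in knockout mice, and again no member passed. The difference was above 0 for 37 of 45 members and below 0 for 8, with a median of 0.048 against 0.002 over all tested genes. With RIN as a covariate 29 were above 0 and 16 below, the median was 0.030 and 3 had an unadjusted p under 0.05. None was called (0.0116% of all tested genes were), and 1 member had an unadjusted p under 0.05 and was higher, against 1.43% of all tested genes. The smallest adjusted p of a member was 0.991, and DESeq2 called none, with 1 at an unadjusted p under 0.05. For 3 of 45 every knockout female lay above every APP/PS1 female, against 4.33% of all tested genes. These 3 were Sdhb, Atp5l and Atp5j, a subunit of the peripheral stalk that is named because its groups did not overlap, after its values were seen. Without APP/PS1/Hras-/- female 2, 13 of 45 did not overlap, against 12.1% of all tested genes. By complex, 3 of 4 members of complex II, 8 of 9 of III, 10 of 15 of IV and 16 of 17 of V were above 0.

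Atp5l, the membrane subunit g of the ATP synthase, was at 79.8, 80.9 and 85.8 CPM in APP/PS1 females and 85.9, 108 and 90.2 CPM in knockout females, at 0.20 (SE 0.084). The groups nearly touched, and knockout female 2 was highest of all 12 libraries. Sdhb was at 86.9, 84.7 and 93.4 CPM against 97.0, 94.0 and 98.4 CPM, at 0.13 (SE 0.067). Atp5f1, subunit b of the peripheral stalk, was at 177, 172 and 183 CPM against 201, 179.6 and 197 CPM, at 0.12 (SE 0.072), and overlapped. Uqcrb was at 43.9, 45.6 and 45.3 CPM against 49.8, 55.8 and 43.5 CPM, at 0.15 (SE 0.099), and overlapped. Of the members with the smallest p in males, Cox8a was at 173, 159 and 197 CPM against 174, 155 and 191 CPM and Uqcrq at 56.3, 50.2 and 53.8 CPM against 57.6, 51.5 and 60.8 CPM in females. Atp5e was at 53.4, 58.8 and 59.4 CPM against 54.5, 60.6 and 58.6 CPM. All 3 overlapped, with differences of −0.027, 0.084 and 0.017. Knockout female 2 took the lowest knockout female value in Cox8a, Uqcrq, Cyc1, Cox6a1, Atp5a1 and Atp5d, and the highest in Uqcrb, Uqcrh, Cox7c, Atp5k and Atp5l.

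**Figure D3:**
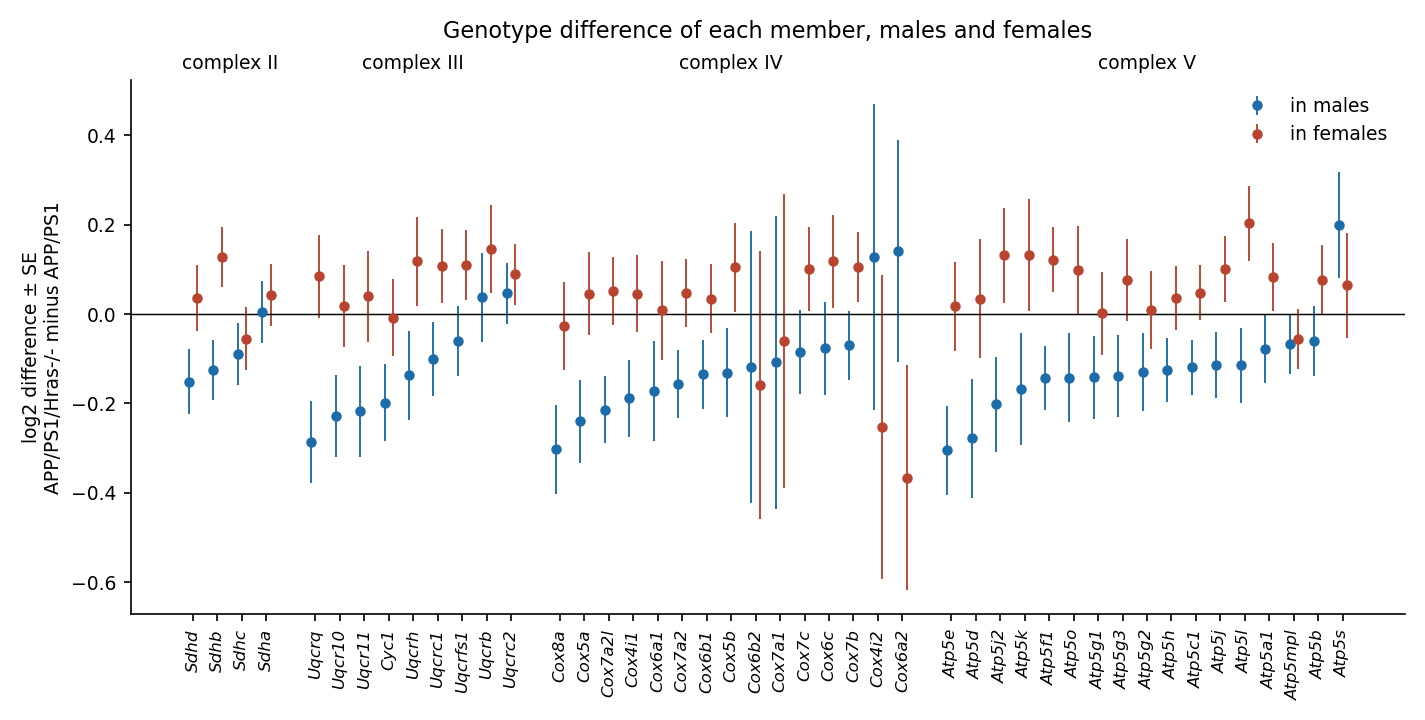
Log2 difference of each member, APP/PS1/Hras-/- minus APP/PS1, with its SE from edgeR, in males (blue) and females (red), ordered within each complex by the male value. In males 39 of 45 points lie below 0 and in females 37 of 45 lie above 0, and no single member passed the adjusted test in either sex.

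The difference between the sexes was itself tested as the genotype by sex interaction, and no member passed (0.0% of all tested genes did, and the smallest adjusted p of a member was 0.667). The female effect minus the male effect was above 0 for 41 of 45 members, with a median of 0.190 against −0.007 over all tested genes. It was above 0 with an unadjusted p under 0.05 for 8 of 45, against 3.23% of all tested genes. The smallest p was that of Uqcrq, at 0.37 (95% interval 0.091 to 0.65), followed by Sdhb and Atp5l at 0.25 (95% interval 0.048 to 0.46) and 0.32 (95% interval 0.060 to 0.57). All 4 members of complex II, all 9 of III, 12 of 15 of IV and 16 of 17 of V were above 0. With RIN as a covariate the median was 0.024, with 29 above 0 and none with an unadjusted p under 0.05. DESeq2 called no member for the interaction, with 8 at an unadjusted p under 0.05. In edgeR, leaving out 1 library moved the number of members with such a p to between 3 (without knockout male 2) and 14 (without knockout female 2), and it was 4 without APP/PS1 male 1, female 1 or female 2 and 5 without knockout male 1. Without APP/PS1 female 2 and knockout male 1 together, 1 member had such a p, while 43 of 45 were above 0.

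Cell type markers also differed in level between the groups. In males the neuronal sum was 6248, 6534 and 6013 CPM in APP/PS1 and 5491, 5471 and 6585 CPM in knockout mice, and 4 of 6 genes were below 0. In females it was 5416, 4539 and 5437 CPM against 5960, 5686 and 5776 CPM, without overlap, and 5 of 6 genes were above 0. The 5 astrocyte genes summed to 6820, 6197 and 6702 CPM in APP/PS1 females and 5614, 6431 and 5143 CPM in knockout females, and all 5 were below 0, while 4 of 5 were above 0 in males. All 5 microglial genes were above 0 in males and below 0 in females. All 5 choroid plexus genes were likewise above 0 in males (median 1.67) and below 0 in females (−2.26). Their sum was 202, 35.2 and 36.8 CPM in the APP/PS1 males against 19.5, 525 and 339.6 CPM in the knockout males, and 40.3, 3048 and 69.0 CPM against 587, 65.8 and 10.2 CPM in females, with overlap in both sexes. All 5 endothelial and mural genes were above 0 in males and 2 of 5 in females, and 4 of 5 oligodendrocyte genes were above 0 in males and all 5 in females (0.145). All 5 striatal genes were below 0 in both sexes, and of 4 erythrocyte genes 3 were above 0 in males and none in females. No marker on these lists was called, and their part in the values of the respiratory genes was not tested.

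Between the sexes, most members had lower values in females among APP/PS1 mice and higher values in females among knockout mice, and no member passed the test. The APP/PS1 males enter both this comparison and the one of genotype in males, so the values stand side by side only. In APP/PS1 mice, 40 of 45 members were lower in females, with a median of −0.119 against 0.008 over all tested genes. None was called (0.052% of all tested genes were), 9 of 45 had an unadjusted p under 0.05 and were lower (4.78% of all tested genes), and 18 of 45 were lower without overlap (9.9%). Cox5a, Uqcrq and Cox7a2l differed by −0.29, −0.28 and −0.24. Members with an unadjusted p under 0.05 numbered 4 without APP/PS1 male 1, 3 without APP/PS1 female 1 and 4 without APP/PS1 female 2. In knockout mice 38 of 45 were above 0 in females minus males, with a median of 0.059, and none was called (0.0462%). Atp5f1 and Atp5l were the 2 with an unadjusted p under 0.05 (1.34% of all tested genes were higher with such a p), at 0.19 and 0.22. None had such a p without knockout male 1 or without knockout male 2, and 1 did without knockout female 2. The knockout sexes did not overlap for 3 members, all higher in females (3.14% of all tested genes). RIN did not overlap between the sexes in either genotype, at 7.8 to 8.3 in males against 8.5 to 8.6 in females of APP/PS1 mice and 8.6 to 8.7 against 8.3 to 8.5 in knockout mice, so sex and RNA quality cannot be told apart within a genotype. With RIN as a covariate 29 members were lower in APP/PS1 females, with a median of −0.050 and 1 with an unadjusted p under 0.05, and in knockout mice 23 were lower and 22 higher, with a median of −0.00064. Across genotypes, 31 of 45 were lower in females, with a median of −0.026, and none was called (0.0693%) or had an unadjusted p under 0.05. DESeq2 called no member in any of these 3 comparisons. Cell type markers differed between the same groups. In APP/PS1 females 5 of 6 neuronal genes were lower than in males, with a median of −0.284 and 4 without overlap. All 5 microglial genes (median 0.497, 4 with an unadjusted p under 0.05), all 5 astrocyte genes (0.287) and all 5 choroid plexus genes (3.19) were higher. The choroid plexus sum overlapped between these sexes, and APP/PS1 female 2 alone was far above the rest. It was 40.3, 3048 and 69.0 CPM in APP/PS1 females against 202, 35.2 and 36.8 CPM in APP/PS1 males. In knockout mice 3 of 6 neuronal genes were lower in females, all 5 microglial genes were higher and all 5 choroid plexus genes lower. None of these markers was called, and their part in the sex differences of the members was not tested.

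RIN was set beside the members because the male groups differed in it. By group, the mean RIN was 8.1 in APP/PS1 males, 8.4 in knockout females, 8.53 in APP/PS1 females and 8.67 in knockout males. The mean summed levels of the members in that order were 6397 ± 240 CPM, 6101 ± 109 CPM, 5824 ± 128 CPM and 5899 ± 106 CPM (SD, n = 3 each). The 3 libraries with the highest sums were the APP/PS1 males, which held the 2 lowest RIN values and 1 of the 2 values of 8.3. Within groups, the slope on RIN was below 0 for 31 of 45 members, with a median of −0.180 per RIN unit against −0.040 over all tested genes. No member passed in edgeR (0.00578% of all tested genes did, and the smallest adjusted p of a member was 0.125), and 6 of 45 had an unadjusted p under 0.05 with a slope below 0, against 7.3% of all tested genes. The medians were 0.019 in complex II, −0.283 in III, −0.180 in IV and −0.195 in V. The 6 were Uqcr11 at −0.81 (SE 0.18) per RIN unit, Atp5e at −0.77 (SE 0.19), Atp5d at −1.0 (SE 0.26), Uqcr10 at −0.67 (SE 0.18), Cox4i1 at −0.54 (SE 0.19) and Atp5o at −0.59 (SE 0.24). DESeq2 called 1 member, Uqcr11, at −0.79 (SE 0.23, adjusted p = 0.0257). These slopes rested on 1 library, since without APP/PS1 male 1 the median was 0.023, with 21 below 0 and 1 with an unadjusted p under 0.05. Without knockout female 2, 11 members had such a p, and without APP/PS1 male 3, 4 did.

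**Figure D4:**
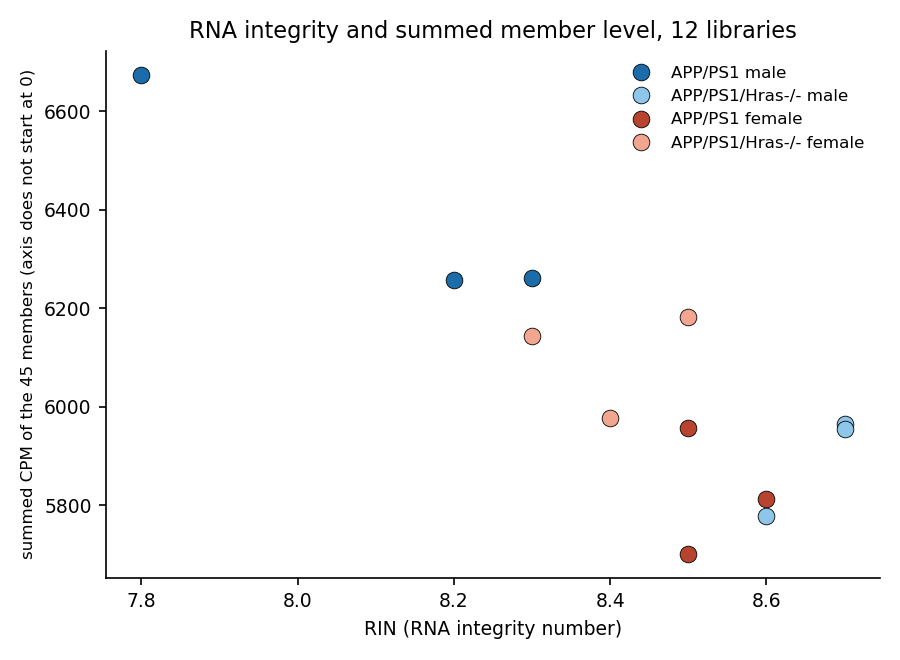
Summed CPM of the 45 members in each library against the RIN of its RNA; colours mark the 4 groups and the vertical axis does not start at 0. APP/PS1 male 1, with a RIN of 7.8, has the highest sum, 6674 CPM, and the 3 knockout males at 8.6 and 8.7 lie between 5777 and 5965 CPM.

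The GC content of the transcript went with the levels of the members in some libraries and not in others. It was set against the values of the 41 members with a mean of at least 10 CPM, which share libraries and scaling, so correlations across them are descriptions. In APP/PS1 male 1 the centred log2 level correlated with GC at Pearson's 0.581 and Spearman's 0.502, against 0.299 and 0.409 over 17289 tested genes. The 20 members above the median GC of 49.8% had a median of 0.215 there, and the other 21 a median of 0.054. In APP/PS1/Hras-/- female 2 the correlation was −0.437 (Spearman −0.368), against −0.170 (−0.252) over all tested genes. The same 20 members had a median of 0.0037 in that library, and the other 21 a median of 0.059. In the other 10 libraries it ran from −0.403 to 0.303, and in APP/PS1 male 3, APP/PS1 female 1 and knockout males 2 and 3 it lay between −0.00050 and 0.0518. For the genotype difference in males it was −0.460 (−0.424), against −0.176 (−0.274) over all tested genes. In females it was −0.502 (−0.451), against 0.066 (0.115). Removal of a per-library trend in GC and exon length put the male median at −0.075, with 38 of 45 members below 0. It put the female median at 0.051, with 34 above 0, and the RIN median at −0.004.

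**Figure D5:**
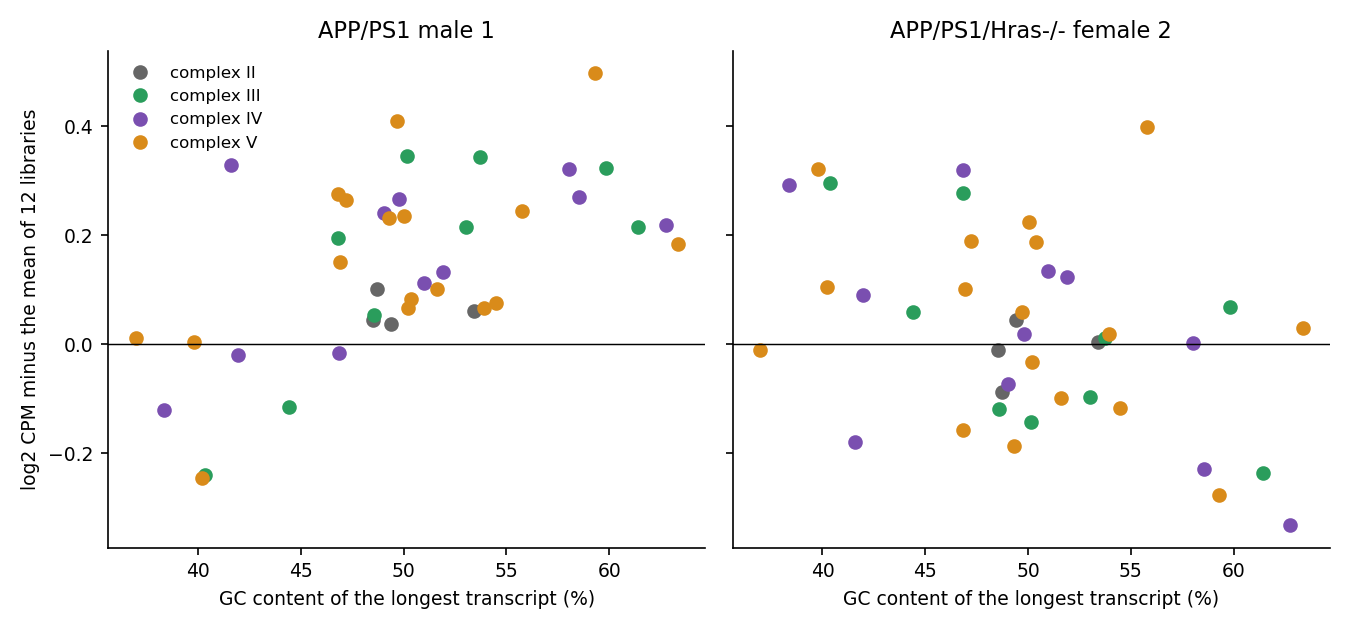
Log2 CPM of each of 41 members minus its mean over 12 libraries (vertical) against the GC content of its longest transcript in percent (horizontal), in APP/PS1 male 1 and in APP/PS1/Hras-/- female 2, coloured by complex. Values rise with GC content in the first library (Pearson's 0.581) and fall with it in the second (−0.437).

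Complex I, which feeds electrons from NADH into the same chain, was taken from the list of its 37 nuclear subunits. In males 32 of 37 were below 0, with a median of −0.134, and the groups did not overlap for 16 that were lower (5.22% of all tested genes) and 1 that was higher. In females 35 of 37 were above 0, with a median of 0.080, and 9 were higher without overlap (4.33% of all tested genes), and none of the 37 was called in either sex. The median for complexes II to V was −0.129 in males and 0.048 in females, and no difference between complexes was tested. In females all 6 mitochondrially encoded subunits of complexes III to V were below 0, with a median of −0.223, and none was called. In males 4 of 6 were above 0. mt-Co1, the catalytic subunit of complex IV, was at 14180, 13900 and 13820 CPM in APP/PS1 males, against 14180, 14200 and 13430 in knockout males, 14720, 16540 and 16280 in APP/PS1 females and 12810, 16240 and 12610 in knockout females. The genotypes overlapped in both sexes. mt-Co2 was at 150 CPM in APP/PS1 male 2 and at 17.4 to 25.9 CPM in the other 11 libraries, and mt-Co3 at 110 CPM in APP/PS1 female 2 and 10.2 to 18.2 CPM elsewhere. How reads that align in several places were counted is not stated, so levels of these mitochondrial genes are uncertain.

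Genes that build the complexes were not called either. Across sexes, 0 of 4 assembly factors of complex II, 0 of 6 of complex III, 0 of 24 tested of complex IV and 0 of 6 of complex V passed. Cox18, which inserts a core subunit of complex IV into the membrane, had the smallest p of these, at 0.19 (SE 0.097). Sdhaf2, which attaches FAD to Sdha, lay at −0.10 (SE 0.068), Lyrm7, a chaperone of the Rieske protein, at 0.13 (SE 0.097), and Atpaf2, which helps assemble the catalytic head of the ATP synthase, at 0.12 (SE 0.070). In males 2 of 4 assembly factors of complex II, 6 of 6 of complex III, 19 of 24 of complex IV and 4 of 6 of complex V were below 0. In females 2 of 4, 5 of 6, 19 of 24 and 5 of 6 were above 0. The 13 citric acid cycle enzymes outside complex II had 9 below 0 in males, with a median of −0.025, and 10 above 0 in females, with a median of 0.067. Among 11 genes that control transcription of respiratory genes, none was called. The mitochondrial transcription factor Tfam lay at 0.085 (SE 0.057) and the coactivator gene Ppargc1b at 0.19 (SE 0.13) across sexes. Of 4 tested electron carriers, 2 lay below 0 and none was called.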

How the data were processed

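Frontal cortex mRNA of 12 mice at 9 months of age was sequenced with a stranded kit, per the labels' protocols. The authors deposited a table of whole-number counts per gene and library, not normalized. Per the submitters' processing notes, the tools were HISAT2 2.1.0, Trimmomatic 0.33, FastQC 0.11.7 and featureCounts, and both mm9 and mm10 are listed as builds with no role stated. No source used here states the annotation release, whether strand was used, or how reads that align in several places were counted.

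Gene identifiers were matched to GENCODE M21 on GRCm38 for 54495 of 54532 genes. The filterByExpr rule over the 4 groups kept 17307 genes, and all 45 members passed it. Tests used edgeR 4.0.16 in R 4.3.3 (quasi-likelihood F test, robust dispersions, TMM scaling) over all 12 libraries, with Benjamini-Hochberg adjustment over all tested genes and a threshold of 0.05. Effects across sexes were fitted with additive terms for sex and genotype, effects within a sex and the interaction from the 4 group means, and the RIN slope from the 4 group means plus RIN. The SE was derived from the F statistic. Log2 CPM used a prior count of 2. The tests were checked on simulated counts with changes larger than the members' genotype and sex differences. The simulation held no differences in RIN, GC or tissue content, so it does not cover differences of the size seen here. For single members a two-sided exact permutation test over mice was added. Promoters were taken from RefSeq, and pseudogene copies were found with blastn 2.17.0. The alternatives were DESeq2 1.42.0, limma-voom (limma 3.58.1), upper quartile or RLE scaling, other filters, RIN as a covariate, removal of GC and length trends, and omission of libraries.

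The labels name separate animals. The members and gene lists were chosen with earlier results of these data known. Members were named by a rule, with values by library in one or both sexes, or as ranges, shares or differences. The rule took all members of complex II, the paralog sets and the members with the smallest p in each complex and comparison. It also took called members and the highest and lowest member per kilobase. From the other lists up to 2 genes with the smallest p were taken, and further marker and mitochondrially encoded genes are given for their levels. Intervals cover the mice sampled.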

Additional observations from a re-analysis of the deposited data

Results flagged for a closer look

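Of 98 values tested for a library far from the other 5 of its genotype, 13 had one. The cutoff is passed by about 1 in 20 independent values from like libraries. These values share the same libraries, and each genotype holds both sexes, so the count is a description and cannot be set against chance. APP/PS1 male 1 was that library for 7 members. It was highest for Uqcr11 at 83.4 CPM (others 64.4 to 68.3), Atp5d at 154 CPM (98.6 to 111) and Atp5e at 77.3 CPM (53.4 to 61.1). It was also highest for Atp5g1 at 98.9 CPM (77.0 to 84.0), Atp5k at 63.2 CPM (49.6 to 54.4) and Atp5o at 60.8 CPM (47.1 to 50.7). It was lowest for Uqcrb at 38.5 CPM (43.9 to 46.0).

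APP/PS1/Hras-/- female 2 stood apart for 4 members. It was highest for Uqcrh at 147 CPM (others 109 to 123), Cox7c at 119 CPM (90.9 to 96.1), Atp5k at 70.3 CPM (48.0 to 52.3) and Atp5l at 108 CPM (79.8 to 90.2). APP/PS1 female 1 was lowest for Cox7a1 at 0.76 CPM (others 0.984 to 1.10), a gene near the count minimum. APP/PS1/Hras-/- female 1 was highest for the complex II sum at 643 CPM (602 to 617).

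The summed level of the members, of complex III and of complex V moved in opposite directions by genotype in the 2 sexes, with every knockout male below and every knockout female above the APP/PS1 mice of its sex. The knockout minus APP/PS1 difference in males was −498 CPM for the members, −73.2 CPM for complex III and −216 CPM for complex V. Means in APP/PS1 and knockout females were 5824 and 6101 CPM for the members. They were 874 and 924 CPM for complex III, and 2814 and 2969 CPM for complex V. On the equal-weight score of all members the female genotypes overlapped. Mean RIN was 8.1 and 8.67 in males, without overlap, so genotype and RNA quality cannot be told apart there. In females mean RIN was 8.53 and 8.4. The difference between the sexes was not tested for these sums.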

How the results depend on the processing

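No paired analysis was possible because the labels give no replicate numbers that the groups share. No member was called in any comparison under any alternative run, except 1 for the RIN slope with DESeq2, Uqcr11. With RIN as a covariate the median log2 difference of the members was 0.0173 across sexes, −0.0473 in males and 0.0238 for genotype by sex. It was −0.0497 for sex in APP/PS1 and −0.000641 for sex in the knockout. Except across sexes, these fits used the RIN slope within groups, which rested on APP/PS1 male 1. With the trend in exon length and GC removed it was −0.0753 in males, 0.135 for genotype by sex and −0.00358 for the RIN slope. Leaving out 1 library at a time gave medians of −0.157 to −0.0925 in males, 0.0409 to 0.0869 in females, 0.154 to 0.226 for genotype by sex and −0.209 to 0.023 for the RIN slope. Without APP/PS1 male 3 or APP/PS1 female 3 the RIN median was −0.0951 or −0.125. The other 172 medians of the members stayed within the pooled SD of 0.0423 between mice. Among the 31 named members, 200 of 3379 values had another sign than in the report, all for differences that did not pass. The count of members higher without overlap in females was 3 with all libraries and 13 without APP/PS1/Hras-/- female 2, and in males 21 and 22 without APP/PS1 male 1. These 2 counts were chosen after seeing the data. Levels per kilobase moved for 34 of 45 members with the longest transcript. Cox7a1, Cox4i2 and Cox6b2, with 201 to 581 counts in all, give the widest intervals.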
